A study of Homo sapiens with 9 samples.

Results

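HAP1 cells that carry an intact MATR3 gene were sequenced as 2 separately supplied wild-type (WT) clones, and the transcriptomes of these clones are compared here. WT clone 7 has 2 libraries and WT clone 1 has 3, which makes 5 of the 9 libraries of the series. The 5 were chosen by their labelled clone alone, with no measured value involved, and every row of the counts was compared, 21003 genes and 1111 repeat subfamilies. The other 4 libraries come from MATR3 knockout (KO) clones 1 and 5, with 2 libraries each. MATR3 encodes matrin 3, a nuclear protein that binds RNA and DNA, and the series concerns the loss of this protein. Per the labels the WT clones are the supplier's unedited control from different batches, bought beside the KO clones, and all 4 clones were untreated and grown in the same medium. Clone and supplier batch therefore cannot be told apart. The labels do not say whether replicate libraries were made from separate cultures. The p-values thus cover only how far these libraries vary, and that variation may be technical.

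HAP1 is an adherent, near-haploid line derived from KBM-7, a line from a chronic myeloid leukaemia. Silent or active states of promoters can be inherited through many cell divisions without a change of sequence. KRAB zinc finger genes lie in clusters on chromosome 19 and encode DNA-binding repressors, many of which target transposable elements. HERVH is an endogenous retrovirus whose LTR7 repeats act as promoters in early embryonic and pluripotent cells. CpG-dense promoters are usually free of DNA methylation, whereas promoters with few CpG pairs depend more on the factors that a cell happens to express.

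The libraries held 16103754 to 34407309 counts. WT clone 1 replicate 1 stood apart in its repeat share before any gene was compared. Repeats took 14.0% of its counts, against 10.3% and 10.5% in replicates 2 and 3 of the same clone and 8.44% and 7.90% in WT clone 7. The median chi-square per row between replicates 2 and 3 was 0.841, while replicate 1 differed from them by 3.37 and 3.18, and the pair of WT clone 7 by 1.49. The SD of log2 ratios over rows was 0.401 and 0.404 for replicate 1 against replicates 2 and 3. It was 0.399 for the pair of WT clone 7 and 0.232 between replicates 2 and 3 of WT clone 1. By this measure the libraries of WT clone 7 differed about as much as replicate 1 did from its clone. Sampling noise alone would give a median chi-square of 0.455, so no library was a copy of another. Counts and most values are therefore given with all libraries and again without WT clone 1 replicate 1. MATR3 was at 224, 212 and 214 CPM (counts per 1e6 counts of a library, after TMM scaling) in WT clone 1 and at 224 and 220 CPM in WT clone 7, against 40.8 to 49.1 CPM in the KO libraries. Its log2 difference between the WT clones was 0.04 (SE 0.08, edgeR adjusted p = 0.832), and that of its neighbour SNHG4 was 0.04 (SE 0.11, edgeR adjusted p = 0.88).

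The label of a myeloid leukaemia line was checked against 35 haematopoietic genes. Of these, 18 had a row in the counts analysed here, and 12 were at 1 CPM or more in every WT library. GATA2, TAL1 and RUNX1, transcription factors of blood progenitors, were at 48.1 to 58.9, 31.0 to 40.9 and 13.6 to 23.0 CPM, with the highest RUNX1 value in WT clone 1 replicate 1. CD38, FLI1, PTPN6 and LMO2, genes of blood cells and their progenitors, were under 1 CPM in every WT library. The general leukocyte marker PTPRC, the progenitor marker CD34 and the lineage factors GATA1 and SPI1 had no row in these counts. The check therefore gives no level for them. BCR was at 28.1 to 29.8 CPM and ABL1 at 8.03 to 11.4 CPM in the WT libraries, and neither was called between the clones (log2 -0.00, SE 0.08 and -0.25, SE 0.14, edgeR adjusted p = 0.995 and 0.348).

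Across the transcriptome the WT clones were close, and the called differences were mostly lower levels in WT clone 7. A contrast of 2 clones does not say which of them changed. Of 18869 genes tested, 133 (0.705%) were called at an edgeR adjusted p below 0.05, 35 higher (0.185%) and 98 lower (0.519%) in WT clone 7. The median log2 difference over all genes was 0.02. The calls were uneven in size. Of the 35 higher genes 33 changed by under 2-fold and 2 (0.0106% of the genes tested) by at least 2-fold. Of the lower genes 49 (0.260%) were lower by at least 2-fold, 32 of them (0.170%) by at least 4-fold. All 133 genes had WT libraries that did not overlap between the clones, a state shared by 18.3% of all tested genes on the higher side and 16.2% on the lower. Their edgeR adjusted p-values all lay between 0.029 and 0.0498, close under the threshold.

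Leaving out WT clone 1 replicate 1 raised the number of calls without changing their direction. Of 18680 genes then tested, 800 (4.28%) were called, 269 higher (1.44%) and 531 lower (2.84%), with the 133 genes among them. At least 2-fold were 166 genes (0.889%), 7 higher (0.0375%) and 159 lower (0.851%), and at least 4-fold were 75 lower genes (0.401%). The median over all genes was 0.01. The calls rested on both libraries of WT clone 7, since without replicate 1 or replicate 2 of that clone edgeR called 0 genes (1917 and 2559 at an unadjusted p below 0.05). A fit of the WT libraries alone also called 0 genes by edgeR (2434 at an unadjusted p below 0.05), whereas DESeq2 on all libraries called 485.

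**Figure D1:**
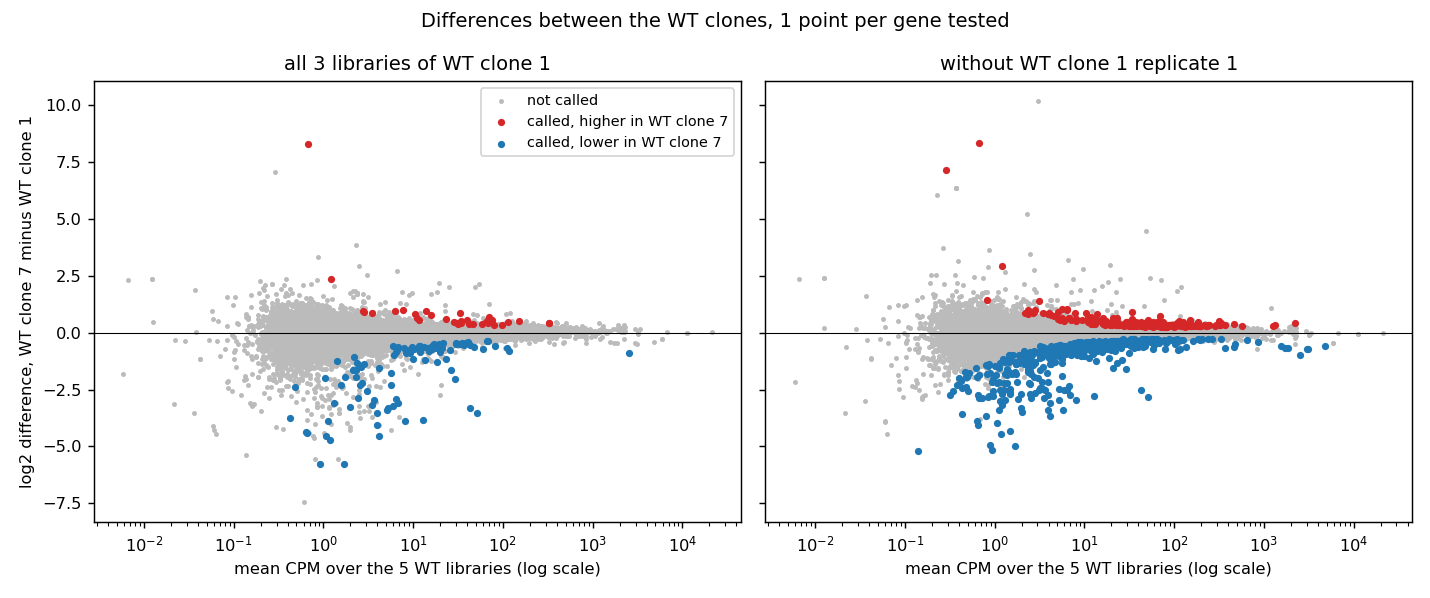
Each point is a gene, placed by its mean CPM over the 5 WT libraries (x, log scale) and its log2 difference between WT clone 7 and WT clone 1 (y), with all libraries (left) and without WT clone 1 replicate 1 (right). Called genes are coloured, 35 higher and 98 lower on the left, 269 higher and 531 lower on the right, and most points beyond 2-fold are lower.

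The gene furthest above 0 among the calls was KCNT1, a sodium-activated potassium channel gene at chr9:135702185-135795508 on the plus strand of hg38. It had 0 counts in all 3 libraries of WT clone 1, and 47 and 29 counts, or 1.55 and 1.80 CPM, in WT clone 7. The KO libraries held 1 count of it in all. Against a floor of 3 counts pooled over the libraries of WT clone 1, KCNT1 was at least 39.7-fold higher in WT clone 7 (edgeR adjusted p = 0.0306, and 0.00403 without replicate 1), a bound that covers counting error only. IL7R, the alpha chain of the interleukin-7 receptor, was at 0.862, 0.431 and 0.206 CPM in WT clone 1 and at 2.31 and 2.24 CPM in WT clone 7. Its log2 difference was 2.33 (SE 0.43, edgeR adjusted p = 0.0452) and 2.91 without replicate 1 (SE 0.36, edgeR adjusted p = 0.00346). The KO libraries lay between the WT clones for IL7R, at 1.13 to 1.74 CPM. KCNT1 and IL7R were the only called genes at least 2-fold higher when all libraries were used.

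The start of KCNT1 is shown because it was off in 1 clone and on in the other, and that of AMBN, described further below, because many reads stand behind its fall. Both are RefSeq windows of GRCh38.p14, 250 bases before to 50 after the start, written 5′ to 3′ on the gene's strand, with each CG pair in capitals. KCNT1 occupies chr9:135701935-135702234 on the plus strand with 34 CG pairs and AMBN chr4:70592006-70592305 on the plus strand with 5.
KCNT1: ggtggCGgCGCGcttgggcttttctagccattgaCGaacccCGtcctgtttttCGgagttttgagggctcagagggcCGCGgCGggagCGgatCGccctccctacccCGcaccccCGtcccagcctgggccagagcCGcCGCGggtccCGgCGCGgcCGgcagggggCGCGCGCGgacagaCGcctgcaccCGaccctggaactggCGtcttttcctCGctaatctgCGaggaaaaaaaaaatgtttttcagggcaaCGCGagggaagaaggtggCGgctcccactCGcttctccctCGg
AMBN: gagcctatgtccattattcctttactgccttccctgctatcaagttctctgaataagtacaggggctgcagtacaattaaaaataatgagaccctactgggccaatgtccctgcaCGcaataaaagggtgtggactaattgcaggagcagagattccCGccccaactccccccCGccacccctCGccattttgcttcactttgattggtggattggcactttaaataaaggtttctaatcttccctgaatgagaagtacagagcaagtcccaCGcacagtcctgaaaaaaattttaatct
The letters searched were CG, which read the same on both strands. Of 27305 RefSeq promoters of this length, 86.0% held at most 34 such pairs and 34.4% at most 5, so KCNT1 lies on the dense side and AMBN on the sparse side.

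The other higher genes were moderate and even across libraries. MEF2C, a transcription factor of muscle, neural and blood cells, was at 27.6, 24.9 and 24.2 CPM in WT clone 1 and at 46.0 and 45.6 CPM in WT clone 7 (log2 0.84, SE 0.09, edgeR adjusted p = 0.029, and 0.90, SE 0.09, adjusted p = 0.000904 without replicate 1). It overlaps MEF2C-AS1, and since the strand setting of the counting is not given in the sources used here, reads of the pair cannot be told apart. AMOTL2, an angiomotin family protein of the Hippo pathway, was at 58.9, 54.0 and 55.2 CPM against 85.5 and 96.1 CPM (log2 0.70, SE 0.09, edgeR adjusted p = 0.0306). The overlapping row ENSG00000214289 was called higher as well, and the same limit holds for it. AJUBA, a LIM protein that restrains the Hippo kinases, was at 60.6, 58.8 and 57.4 CPM against 80.8 and 85.1 CPM (log2 0.49, SE 0.07, edgeR adjusted p = 0.0306). Without replicate 1 the log2 differences of AMOTL2 and AJUBA were 0.73 and 0.51. In none of these genes did the libraries of the clones overlap, and replicate 1 of WT clone 1 sat with its clone.

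Further higher genes encode proteins of the cell surface, secreted factors and enzymes. CDH6, a classical cadherin, was at 133, 128 and 128 CPM in WT clone 1 and at 187 and 185 CPM in WT clone 7 (log2 0.52, SE 0.08, edgeR adjusted p = 0.0306, and 0.54 without replicate 1). SDC2 and GPC4 encode the cell-surface heparan sulphate proteoglycans syndecan-2 and glypican-4. Their log2 differences were 0.55 (SE 0.09, edgeR adjusted p = 0.0372) and 0.40 (SE 0.07, edgeR adjusted p = 0.0452). PCDH18, a protocadherin, was higher by 0.55 (SE 0.10, edgeR adjusted p = 0.0478), and TSPAN12, a tetraspanin that aids Norrin signalling through frizzled receptors, by 0.77 (SE 0.15, edgeR adjusted p = 0.0495). Without replicate 1 SDC2, GPC4, PCDH18 and TSPAN12 were at 0.47, 0.35, 0.46 and 0.63. Other named genes in this direction were ACTG2, a smooth muscle actin (log2 0.94), GADL1, an enzyme related to glutamate decarboxylase (0.96), KLHDC8A (0.97), TNMD, a membrane protein of tendon (0.85), ADM, the vasodilator peptide adrenomedullin (0.82), STS, steroid sulphatase (0.62), ELL2, an elongation factor of RNA polymerase II (0.61), and TUNAR, a long noncoding RNA (0.56). Among those with the highest CPM, which follows length as well as level, were IRAK1, a kinase of interleukin-1 and Toll-like receptor signalling (log2 0.44), M6PR, a receptor that sorts lysosomal enzymes (0.33), and HSPA1A, the inducible HSP70 (0.46). HSPA1A has a near-identical copy beside it, so its value is uncertain where the counting split reads between the copies.

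**Figure D2:**
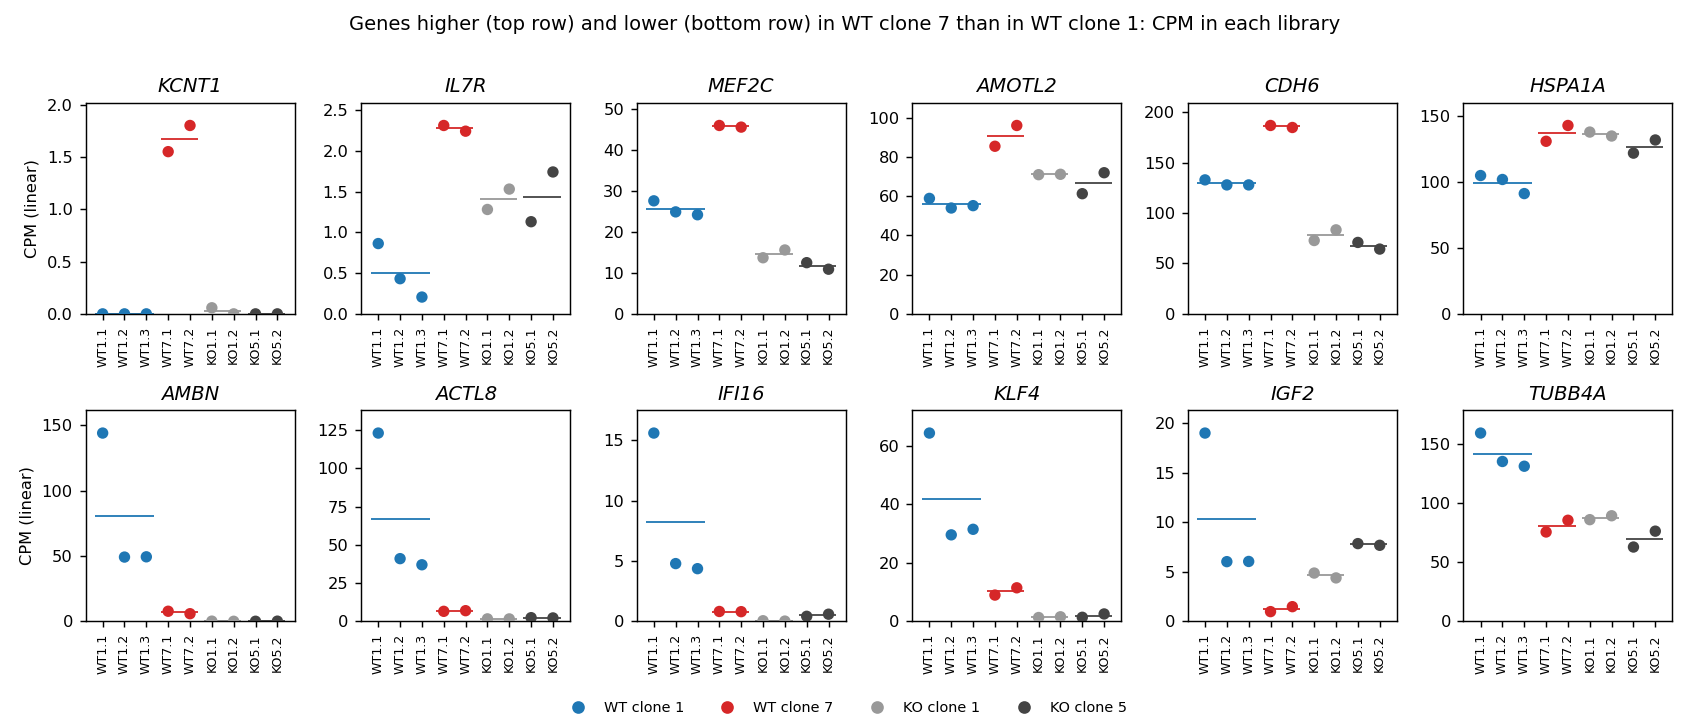
CPM (y, linear from 0) of 12 genes in each of the 9 libraries (x; WT1.1 is WT clone 1 replicate 1), with a bar at each clone's mean. In the top row WT clone 7 lies above WT clone 1, as in CDH6 at 187 and 185 against 128 to 133 CPM. In the bottom row WT clone 7 lies below, and replicate 1 of WT clone 1 is the highest library in all 6 genes. The genes were picked for display, and other genes called lower, such as SREBF1, had replicate 1 lowest of its clone.

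With all libraries, the called genes that differed by at least 2-fold were lower in WT clone 7, apart from KCNT1 and IL7R. AMBN encodes ameloblastin, a protein of the enamel matrix, at chr4:70592256-70607288 on the plus strand of hg38. It was at 144, 49.2 and 49.4 CPM in WT clone 1, at 7.79 and 5.91 CPM in WT clone 7 and at 0.116 to 0.232 CPM in the KO libraries. Its log2 difference was -3.52 (SE 0.48, edgeR adjusted p = 0.0306), and -2.82 (SE 0.13, adjusted p = 2.97e-06) without replicate 1. ACTL8, an actin-like gene normally restricted to testis, showed the same order at 123, 41 and 37 CPM against 6.60 and 7.03 CPM, with 1.65 to 2.46 CPM in the KO libraries (log2 -3.29, SE 0.51, edgeR adjusted p = 0.0317, and -2.52 without replicate 1). IFI16, a sensor of DNA, was at 15.6, 4.79 and 4.37 CPM against 0.825 and 0.809 CPM (log2 -3.30, SE 0.60, edgeR adjusted p = 0.0443, and -2.47 without replicate 1). In all 3 genes the value without replicate 1 was smaller in size and had the smaller SE.

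Several further genes were near 0 in WT clone 7. TBX18, a T-box transcription factor of embryonic mesenchyme, was at 5.30, 1.68 and 1.42 CPM in WT clone 1 and at 0.033 and 0.0622 CPM in WT clone 7, with 0 counts in the KO libraries (log2 -5.79, SE 1.01, edgeR adjusted p = 0.0498). NLGN4X, an X-linked synaptic adhesion protein, was at 2.71, 0.814 and 1.06 CPM against 0.033 and 0 CPM (log2 -5.79, SE 1.00, edgeR adjusted p = 0.0452). GALNT14, which starts mucin-type O-glycosylation, was at 2.59, 1.63 and 1.47 CPM against 0.033 and 0.124 CPM (log2 -4.71, SE 0.62, edgeR adjusted p = 0.0306). Without replicate 1 the log2 differences of TBX18, NLGN4X and GALNT14 were -4.99, -5.17 and -4.45. These levels rest on few reads, and a fitted fold near 0 counts depends on the prior count. Of the same kind were IL34, a ligand of the macrophage receptor CSF1R (log2 -4.40), ITGAL, the alpha chain of the leukocyte integrin LFA-1 (-4.35), ESX1, an X-linked homeobox gene of placenta and testis (-4.07), and DLEC1 (-3.90). APCDD1, an inhibitor of WNT signalling, was at -3.77, and the noncoding or uncharacterised genes LOC102724153 and LINC02582 were at -3.55 and -3.38. Without replicate 1 IL34, ITGAL, ESX1, DLEC1, APCDD1, LOC102724153 and LINC02582 were at -4.04, -3.90, -3.41, -3.38, -3.59, -2.73 and -2.98. SLITRK4, a neuronal membrane protein, had 0 counts in WT clone 7 and 39, 3 and 17 counts in WT clone 1, at least 15.7-fold above a pooled floor of 3 counts. It was not called (edgeR adjusted p = 0.149), and without replicate 1 it did not pass the filter on low counts.

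Known regulators were among the genes lower at intermediate levels. IGF2, the imprinted insulin-like growth factor, was at 19, 6.03 and 6.05 CPM in WT clone 1 and at 0.99 and 1.49 CPM in WT clone 7 (log2 -3.08, SE 0.55, edgeR adjusted p = 0.0425), while the KO libraries held 4.39 to 7.85 CPM. IGF2 overlaps INS-IGF2, and reads of the pair cannot be told apart. KLF4, a zinc finger transcription factor of pluripotent and epithelial cells, was at 64.4, 29.6 and 31.5 CPM against 9.01 and 11.5 CPM (log2 -2.03, SE 0.33, edgeR adjusted p = 0.0376). CYP1B1, a cytochrome P450 that oxidises oestrogens and aromatic hydrocarbons, was at 2.40, 1.72 and 1.95 CPM against 0.297 and 0.124 CPM (log2 -3.08, SE 0.44, edgeR adjusted p = 0.0306). PCDHB2, a clustered protocadherin, had a log2 difference of -2.30 (SE 0.44, edgeR adjusted p = 0.0495), and the histone gene HIST1H2BE one of -1.65 (SE 0.31, edgeR adjusted p = 0.0495). Without replicate 1 IGF2, KLF4, CYP1B1, PCDHB2 and HIST1H2BE were at -2.34, -1.59, -2.96, -1.80 and -1.21. For IGF2, CYP1B1 and PCDHB2 the KO libraries lay above both libraries of WT clone 7, unlike AMBN or TBX18.

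The lower genes with the highest CPM differed by under 2-fold. TUBB4A, a beta-tubulin, was at 159, 135 and 131 CPM in WT clone 1 and at 75.5 and 85.4 CPM in WT clone 7 (log2 -0.82, SE 0.11, edgeR adjusted p = 0.0306, and -0.73 without replicate 1). SREBF1, the sterol-responsive factor that drives lipid synthesis, was at 114, 134 and 144 CPM against 74.7 and 89.3 CPM (log2 -0.68, SE 0.12, edgeR adjusted p = 0.0422). CCND2, a D-type cyclin, was at 112, 89.2 and 84.0 CPM against 63.7 and 60.8 CPM (log2 -0.61, SE 0.11, edgeR adjusted p = 0.0476). ATP2B4, a calcium pump of the plasma membrane, and CECR2, a chromatin remodelling factor, were lower by log2 differences of -0.39 and -0.35 (SE 0.06 and 0.07, edgeR adjusted p = 0.0359 and 0.0495). In TUBB4A and CCND2 replicate 1 of WT clone 1 was the highest library, whereas in SREBF1 it was the lowest of its clone and still above WT clone 7. Without replicate 1 SREBF1, CCND2, ATP2B4 and CECR2 were at -0.77, -0.48, -0.40 and -0.37.

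The genes with the largest differences were also uneven within WT clone 1. Over the 32 genes at least 4-fold lower with all libraries, 27 of them protein-coding, the median was 8.25 CPM in replicate 1 and 3.33 and 3.17 CPM in replicates 2 and 3 of WT clone 1. It was 0.561 and 0.467 CPM in WT clone 7, 0.232 and 0.202 CPM in KO clone 1, and 0.307 and 0.245 CPM in KO clone 5. The 75 genes at least 4-fold lower without replicate 1 gave 4.19, 1.24 and 1.39 CPM in WT clone 1 and 0.198 and 0.187 CPM in WT clone 7. For the 49 genes lower by under 2-fold the medians within WT clone 1 were 21.2, 19.7 and 19.7 CPM, against 13.1 and 13.7 CPM in WT clone 7, and for the 35 higher genes they were 28.4, 29.1 and 27.8 CPM against 41.9 and 41.3 CPM. Gene by gene, replicate 1 stood above replicates 2 and 3 by a median of 2.96-fold at the 75 genes, and its median ratio to them over all genes tested was 0.988. All 3 libraries of WT clone 1 entered the calls of the 32 genes, so that selection itself favours a high replicate 1. Replicates 2 and 3 also entered the calls of the 75 genes. These values thus stand side by side as a description. In bulk RNA a smaller share of expressing cells and less RNA per cell cannot be told apart, and what sets replicate 1 apart was not tested.

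**Figure D3:**
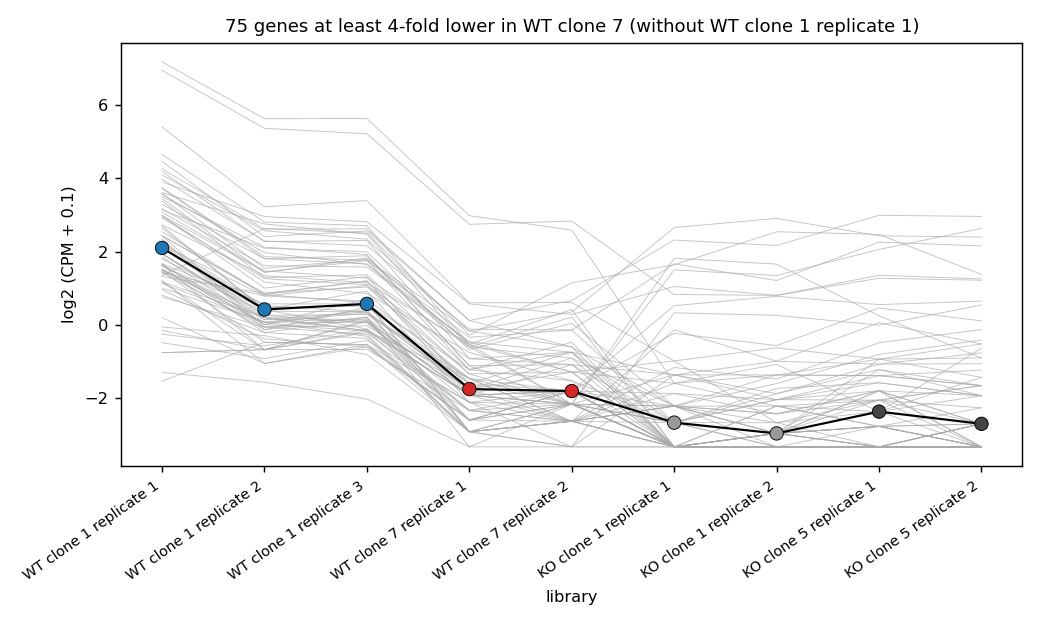
Levels as log2 (CPM + 0.1) (y) of the 75 genes at least 4-fold lower in WT clone 7 without WT clone 1 replicate 1, in all 9 libraries (x). Grey lines are genes and filled points the median, which is 4.19 CPM in WT clone 1 replicate 1, 1.24 and 1.39 CPM in replicates 2 and 3, and 0.198 and 0.187 CPM in WT clone 7.

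A run of neighbouring KRAB zinc finger genes was low in WT clone 7. The zinc finger cluster of 19p12 had 29 tested genes, and 1 of them, ZNF208, was called with all libraries, beside 98 lower among all 18869 genes. Without replicate 1, 10 of 28 were called lower and 0 higher, beside 531 lower of 18680 genes. The medians of the list were -0.27 and -0.09, against 0.02 and 0.01 for all genes. ZNF208, at chr19:21932958-22010949 on the minus strand of hg38, was at 25, 6.89 and 6.43 CPM in WT clone 1 and at 0.594 and 1.24 CPM in WT clone 7, with 0 to 0.189 CPM in the KO libraries (log2 -3.87, SE 0.72, edgeR adjusted p = 0.0476, and -2.96, SE 0.37, adjusted p = 0.00346 without replicate 1). Its neighbour ZNF43, at chr19:21804946-21852125 on the minus strand, was at 18.1, 4.74 and 4.84 CPM against 0.429 and 0.498 CPM and had 0 counts in the KO libraries. ZNF43 missed the threshold with all libraries (log2 -4.29, SE 0.78, edgeR adjusted p = 0.0527) and was called without replicate 1 (-3.38, SE 0.28, adjusted p = 0.00107).

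The low genes of 19p12 alternated with genes that hardly differed. ZNF43, ZNF208, ZNF257, ZNF676 and ZNF729 lie next to each other among the genes of the list, and all 5 were called without replicate 1. ZNF676 was at 21.9, 5.22 and 5.81 CPM against 0.99 and 0.56 CPM, and ZNF729 at 10.8, 2.59 and 3.45 CPM against 0.594 and 0.124 CPM. ZNF100 on one side of this run was at 28.3, 21.4 and 22.1 CPM against 21.5 and 21.2 CPM, and ZNF492 on the other at 12.3, 8.33 and 8.02 CPM against 10.1 and 8.21 CPM. Further called genes were ZNF253, ZNF90, ZNF486, ZNF737 and the second of 2 overlapping entries for ZNF730, between which reads may have been split. The 10 called genes had log2 differences of -4.95 to -1.76 without replicate 1 and stood 2.57 to 4.40-fold higher in replicate 1 than in the mean of replicates 2 and 3. The 18 others had log2 differences of -0.61 to 0.18 and stood 1.03 to 1.62-fold higher in replicate 1. The 10 called genes were at 0.662 CPM or less in every KO library, and 5 of them had 0 counts there. ZNF66 was at 2.71, 0.91 and 0.413 CPM against 0.033 and 0 CPM and did not pass the filter without replicate 1. KRAB zinc finger genes arose by duplication and resemble each other, so reads shared between copies limit these values.

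**Figure D4:**
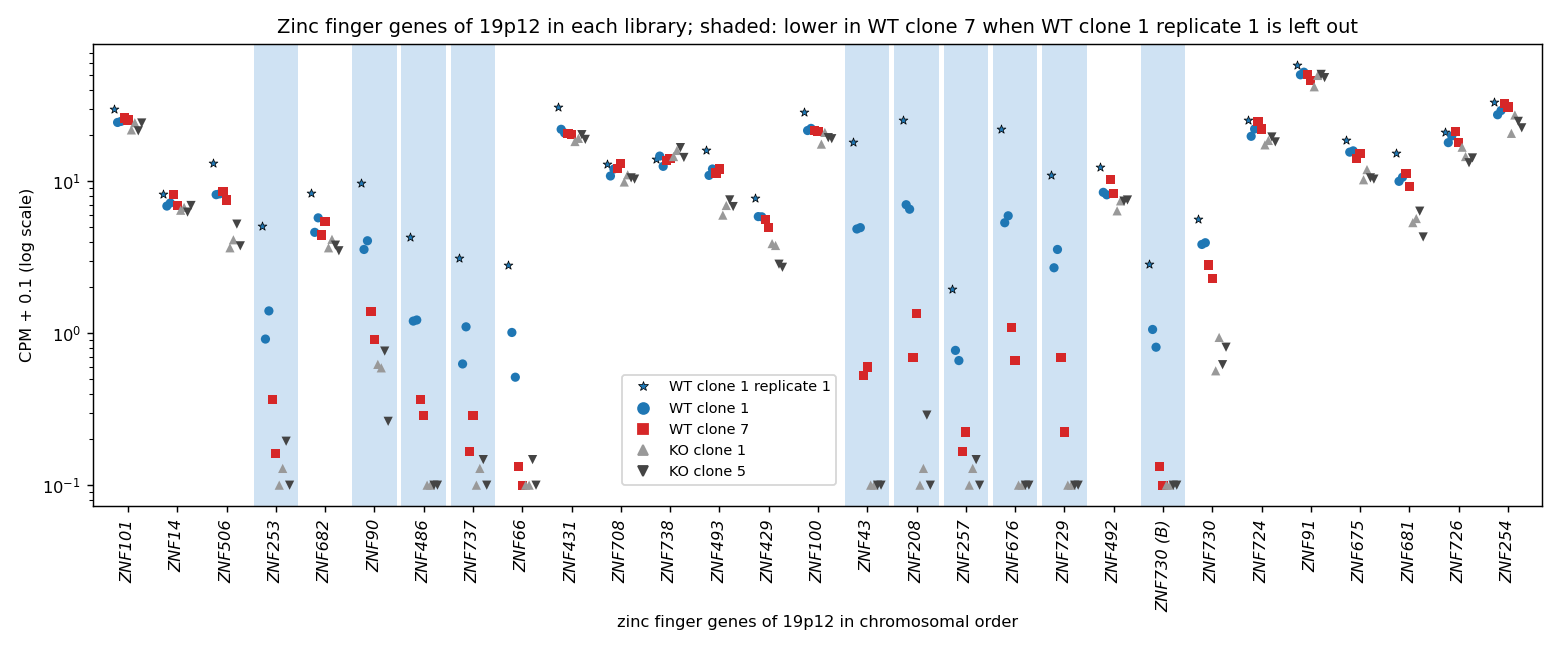
CPM + 0.1 (y, log scale) of the 29 tested zinc finger genes of 19p12 in chromosomal order (x) in the 9 libraries, with WT clone 1 replicate 1 as a star. The 10 shaded genes were called lower in WT clone 7 without that replicate, and their points spread from the star down to the KO libraries. The points of the unshaded neighbours ZNF100 and ZNF492 lie together. Unshaded ZNF66, which did not pass the filter without that replicate, and the uncalled entry of ZNF730 spread as well, from 2.71 and 5.54 CPM at the star to 0 and 0.465 CPM in KO libraries.

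The starts of ZNF43 and ZNF208 are shown as neighbours in this run that were low together. The window of ZNF43 occupies chr19:21836133-21836432 and ZNF208 chr19:22010894-22011193, both on the minus strand, in RefSeq windows of GRCh38.p14 as above. RefSeq places this start of ZNF43 inside the gene as GENCODE draws it, so the window differs from the GENCODE start, which held 9 CG pairs and was used for the counts over all genes. CG pairs are in capitals, 12 in ZNF43 and 10 in ZNF208.
ZNF43: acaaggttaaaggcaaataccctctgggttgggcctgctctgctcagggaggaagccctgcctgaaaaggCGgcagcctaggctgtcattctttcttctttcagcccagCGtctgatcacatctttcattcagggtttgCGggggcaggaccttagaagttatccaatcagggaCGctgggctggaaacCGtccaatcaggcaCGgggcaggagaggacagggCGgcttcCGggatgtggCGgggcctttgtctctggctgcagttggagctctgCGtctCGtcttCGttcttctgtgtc
ZNF208: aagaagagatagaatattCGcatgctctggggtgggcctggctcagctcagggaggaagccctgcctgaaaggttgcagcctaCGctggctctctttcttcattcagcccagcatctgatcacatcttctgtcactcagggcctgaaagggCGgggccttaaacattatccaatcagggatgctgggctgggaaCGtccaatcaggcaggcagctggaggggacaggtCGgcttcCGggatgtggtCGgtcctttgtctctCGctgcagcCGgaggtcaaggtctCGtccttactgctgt
The windows were identical at 77.9% of the positions of a global alignment. Of all RefSeq promoters of this length, 48.5% held at most 12 CG pairs and 45.6% at most 10.

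Counts over the whole of chromosome 19 include the genes of this list. Of the 209 tested ZNF-named genes of the chromosome 3 were lower with all libraries, and without replicate 1 there were 20 lower and 1 higher of 207. Outside the 19p12 list 2 of 180 were lower with all libraries, and 10 lower and 1 higher of 179 without replicate 1. On other chromosomes 3 of 234 were lower and 5 higher without replicate 1. ZNF793 was at 42.1, 9.24 and 10.4 CPM in WT clone 1 and at 1.42 and 1.43 CPM in WT clone 7 (log2 -3.82, SE 0.74, edgeR adjusted p = 0.0498, and -2.78 without replicate 1). ZNF578 was at 3.02, 0.91 and 1.24 CPM against 0.033 and 0.124 CPM (log2 -4.55, SE 0.84, edgeR adjusted p = 0.0495, and -3.95 without replicate 1). Chromosome 19 held 14.1% of the genes lower without replicate 1 and 6.95% of the genes tested. Of its 1312 tested genes of any name, 75 (5.72%) were lower without replicate 1, and 20 of these 75 were ZNF-named. Zinc finger genes thus made up only a part of the lower genes of this chromosome. ZNF141 on chromosome 4 had the same profile, at 10.3, 2.35 and 2.48 CPM against 0.33 and 0.622 CPM, and was called without replicate 1 alone (edgeR adjusted p = 0.00889, against 0.0622).

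Repeat subfamilies were lower in WT clone 7 almost throughout. Of 1078 tested, 1054 had a log2 difference below 0, and in 841 (78.0%) both libraries of WT clone 7 lay below all 3 of WT clone 1, against 2 (0.186%) on the higher side. The median over repeats was -0.51, where that over genes was 0.02. At an edgeR adjusted p below 0.05, 29 repeats (2.69%) were lower and 0 higher (1 at an unadjusted p below 0.05), and DESeq2 called 355 lower and 0 higher. Without replicate 1, 249 of 1061 (23.5%) were lower and 0 higher (1 at an unadjusted p below 0.05), the median was -0.35, and 1007 values were below 0. EdgeR called 0 repeats without replicate 1 or replicate 2 of WT clone 7 (597 and 473 at an unadjusted p below 0.05). Replicate 1 of WT clone 1 stood a median of 1.39-fold above replicates 2 and 3 over all repeats tested. The repeat share of whole libraries moved in the same order, but it sums these same rows and is no separate observation. What lies behind the shift was not tested.

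HERVH and its LTR7 promoters held 3 of the 5 repeats called with a difference of at least 2-fold (0.464% of those tested), among them the 1 past 4-fold (0.0928%), LTR7Y. HERVH-int, the internal part, was at 2459, 1520 and 1573 CPM in WT clone 1 and at 483 and 556 CPM in WT clone 7, a log2 difference of -1.83 (SE 0.20, edgeR adjusted p = 0.029) and of -1.57 (SE 0.10, adjusted p = 4.59e-05) without replicate 1. LTR7Y was at 179, 96.8 and 101 CPM against 29.1 and 31.7 CPM (log2 -2.04, SE 0.25, edgeR adjusted p = 0.0306, and -1.71 without replicate 1). LTR7B was at 63.9, 36 and 37.7 CPM against 15.6 and 13.8 CPM (log2 -1.63, SE 0.23, edgeR adjusted p = 0.0306, and -1.32 without replicate 1). LTR7 itself differed less, at 49.0, 47.7 and 51.2 CPM against 33.7 and 36.1 CPM (log2 -0.50, SE 0.09, edgeR adjusted p = 0.0412), with no higher level in replicate 1. LTR7C was not called with all libraries (log2 -0.75, SE 0.18, edgeR adjusted p = 0.0711) and was called without replicate 1 (adjusted p = 0.0374). In the KO libraries HERVH-int was at 467 to 657 CPM, near WT clone 7.

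**Figure D5:**
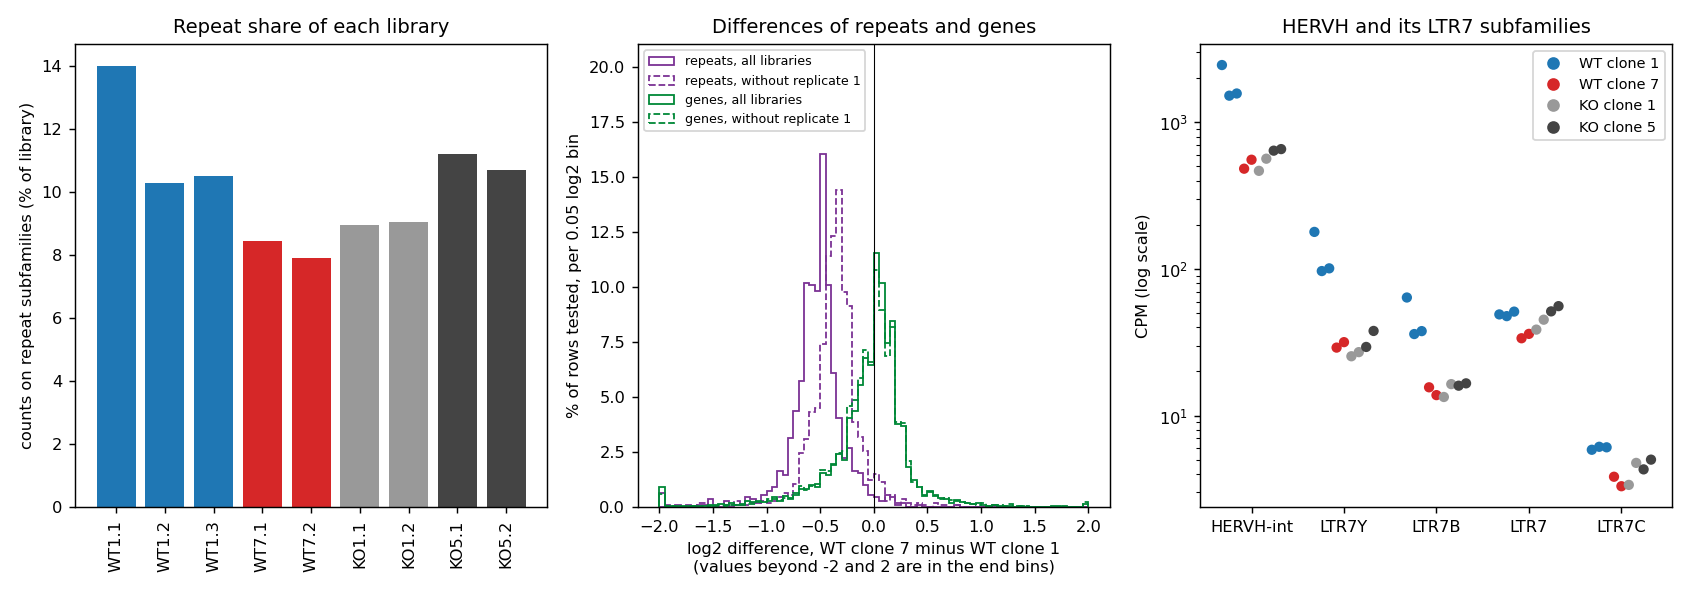
Left, the share of each library's counts on repeat subfamilies (y, percent from 0), highest at 14.0% in WT clone 1 replicate 1. Middle, the log2 differences between the WT clones of repeats and genes (x, in bins of 0.05; y, percent of rows tested), with medians of -0.51 and 0.02 with all libraries; right, CPM (y, log scale) of HERVH-int and 4 LTR7 subfamilies by library.

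Among the classes the shift was much the same size. The medians of LTR, LINE, SINE and DNA elements were -0.54, -0.52, -0.47 and -0.48 with all libraries and -0.38, -0.33, -0.31 and -0.32 without replicate 1. Of the 29 repeats called with all libraries 18 were LTR elements, which made up 551 of the 1078 repeats tested. PABL_B-int, another retroviral internal part, was at 27.3, 20.5 and 22 CPM against 12.9 and 12.8 CPM (log2 -0.85, SE 0.12, edgeR adjusted p = 0.0306, and -0.73 without replicate 1). The LINE subfamily L1M2a, at 13.6, 12.4 and 13.7 CPM against 8.12 and 8.65 CPM, and MER50, at 36, 29.5 and 28.7 CPM against 19.8 and 20 CPM, had log2 differences of -0.66 and -0.65 (SE 0.10 and 0.11, edgeR adjusted p = 0.0345 and 0.0372), and of -0.64 and -0.55 without replicate 1. Without replicate 1 39 of 78 ERVL-MaLR, 23 of 51 Alu, 45 of 129 L1 and 61 of 287 ERV1 subfamilies were lower. Subfamily counts pool many copies and do not say which copies were transcribed.

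Gene groups with known roles were described by counts, beside 35 higher and 98 lower of 18869 genes with all libraries and 269 higher and 531 lower of 18680 without replicate 1. Of 23 heat shock and chaperone genes 1 was higher and 0 lower with all libraries (median 0.20), and 9 were higher and 0 lower without replicate 1 (median 0.27). HSPH1, an HSP110 co-chaperone, was at 307, 269 and 266 CPM against 376 and 374 CPM (log2 0.42, edgeR adjusted p = 0.0502, and 0.49, adjusted p = 0.00654 without replicate 1). HSPA8, the constitutive HSC70, and AHSA1, an activator of HSP90, had log2 differences of 0.40 and 0.36 without replicate 1 (edgeR adjusted p = 0.0135 and 0.0152, against 0.0747 and 0.053 with all libraries). Of 40 cell cycle genes 0 were higher and 1 lower with all libraries (median 0.16; 20 in either direction at an unadjusted p below 0.05 by edgeR). Without replicate 1, 5 were higher and 1 lower. The higher genes then included CCNA2, CCNB1 and AURKA at 0.31, 0.29 and 0.32 (edgeR adjusted p = 0.0284, 0.0362 and 0.0279). CCND2 was the 1 lower gene with and without replicate 1.

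Sterol and extracellular matrix genes held mostly lower calls. Of 30 cholesterol synthesis genes 0 were called with all libraries (12 at an unadjusted p below 0.05 by edgeR, 3 called by DESeq2; median -0.14), and 6 were lower without replicate 1. INSIG1, which retains the SREBP factors in the endoplasmic reticulum, was at 35.6, 44.9 and 45.5 CPM against 31.1 and 30.2 CPM. It was lower without replicate 1 (log2 -0.56, SE 0.07, edgeR adjusted p = 0.00346, against 0.0683), as was FADS1, a fatty acid desaturase (-0.35, adjusted p = 0.0166). Of 37 extracellular matrix genes 1 was lower with all libraries, the laminin chain gene LAMA4 (log2 -0.58, SE 0.11, edgeR adjusted p = 0.0495), and 7 were lower and 1 higher without replicate 1. Laminin chains LAMA5 and LAMC3 were among these at -0.65 and -0.79 (edgeR adjusted p = 0.00831 and 0.0113).

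Smaller groups held single members on either side. Of 15 WNT and Hippo targets AMOTL2 and AJUBA were higher and APCDD1 lower with all libraries, and 4 were higher and 2 lower without replicate 1. The Hippo targets CYR61 and CTGF were at 26.8, 46.3 and 47.5 against 65.2 and 71.7 CPM and at 4.99, 5.17 and 5.07 against 7.76 and 6.78 CPM. Both were called higher without replicate 1 alone (log2 0.54 and 0.51, edgeR adjusted p = 0.0068 and 0.0479). Of 31 neuronal and synaptic genes 1 was higher and 1 lower, the latter NLGN4X, and without replicate 1 there were 1 higher and 4 lower of 30.

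Other groups held few calls. With all libraries 1 lower gene each was found among 33 HOX genes (HOXD13), 28 imprinted genes (IGF2), 56 replication-dependent histones (HIST1H2BE), 18 genes of DNA sensing (IFI16), 34 immediate early genes (KLF4) and 17 integrins (ITGAL), and without replicate 1 these lists held 2, 2, 1, 1, 3 and 3 lower genes, with 2 higher among the immediate early genes. Of 33 cytochrome P450 and aldehyde dehydrogenase genes CYP1B1 and CYP2S1 were lower, and without replicate 1 so was ALDH1A2, the retinoic acid synthesis enzyme, at 55.2, 17.5 and 18.2 CPM against 5.54 and 6.78 CPM. Of 33 glycolysis and hypoxia genes ADM was higher and the lactate transporter SLC16A3 lower. Of 43 protocadherins PCDH18 was higher and PCDHB2 lower. Of 32 interferon-stimulated genes 0 were called with all libraries (7 at an unadjusted p below 0.05 by edgeR, 1 called by DESeq2), and HERC6 was higher without replicate 1 (log2 0.43, edgeR adjusted p = 0.0401). MEIOB, a meiotic recombination gene, was the 1 germline gene of 11 called without replicate 1, at 13.3, 3.54 and 3.30 CPM against 0.33 and 0.498 CPM.

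A further 10 lists, of other cell types and processes, held 503 genes tested with all libraries. Of these edgeR called 0 (52 at an unadjusted p below 0.05) and DESeq2 called 12, and without replicate 1 edgeR called 17 of 497. The 17 were 3 lower of 17 haematopoietic genes (ITGA2B, CORO1A and EPOR), 1 higher of 18 epithelial genes, 1 higher and 1 lower of 16 mesenchymal and fibroblast genes, and 2 higher and 1 lower of 17 BMP and TGF-beta genes. The others were 1 higher each of 84 cytosolic ribosomal protein genes, 19 snoRNA host genes, 269 structured small RNAs and 23 NRF2 antioxidant genes, 1 lower of 19 MHC class I genes, and 1 higher and 2 lower of 15 nuclear-retained long RNAs.

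In 7 lists no gene was called by edgeR with or without replicate 1. They were APOBEC3 and repeat-silencing factors, p53 targets, the integrated stress response, NF-kB targets, glutathione S-transferases, endothelial genes and the pair of BCR and ABL1. Together these held 111 tested genes, of which 16 had an unadjusted p below 0.05 with all libraries and 21 without replicate 1, and DESeq2 called 1. The repeat-silencing list, which holds the KRAB co-repressor and its partners, had a median of 0.00 over 31 genes. The mitochondrially encoded protein genes, added after the values were seen, had a median of -0.42. Of these 13 edgeR called 0 with all libraries (2 at an unadjusted p below 0.05), and 7 were lower without replicate 1. Their share of the library was 1.85%, 3.13% and 3.03% in WT clone 1 and 1.91% and 2.38% in WT clone 7, so here replicate 1 sat with WT clone 7.

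Genes with modest differences often had replicate 1 on the other side of its clone. Of the 372 genes lower by under 2-fold without replicate 1, replicate 1 lay below both other libraries of WT clone 1 in 251 and above both in 100. Over all 18869 genes tested it lay below both in 8164 and above both in 7341. The count over the 372 genes shares replicates 2 and 3 with the calls. Genes called for high values in those 2 libraries favour a lower replicate 1 by selection alone. IGFBP5, a secreted binder of insulin-like growth factors, was at 21.8, 56.1 and 50.3 CPM in WT clone 1 and at 33.1 and 36 CPM in WT clone 7. Its log2 difference was -0.32 (SE 0.29, edgeR adjusted p = 0.587) with replicate 1 and -0.63 (SE 0.08, adjusted p = 0.00346) without it. SHANK1, a scaffold of excitatory synapses, was at 1.66, 5.46 and 4.51 CPM against 2.81 and 2.49 CPM, and PRR36 at 19.8, 42.7 and 46.0 CPM against 19.4 and 29.7 CPM. Both were called lower without replicate 1 alone (log2 -0.89 and -0.88, edgeR adjusted p = 0.0155 and 0.0169). CPED1 went with the larger set, at 7.70, 1.87 and 1.68 CPM against 0.66 and 0.56 CPM, with a log2 difference of -2.53 that became -1.50 without replicate 1.

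Chromosomes differed little as a whole. Medians of expressed genes by chromosome lay between -0.00 and 0.08 with all libraries. Over 1138 windows of 20 neighbouring expressed genes the medians ran from -0.19 to 0.17, and from -0.17 to 0.20 without replicate 1. On chromosome 1 the medians of the short and the long arm were 0.07 and -0.08 with all libraries and 0.06 and -0.01 without replicate 1, a split looked at after the values were seen. The CG content of gene starts was counted from hg38 in the same 300-base window around GENCODE starts. Of all tested genes 61.6% had at least 15 CG pairs, while 10 of the 32 genes at least 4-fold lower had them (31.2%) and 65.3% of the 49 lower by under 2-fold. Among protein-coding genes with a mean under 10 CPM in the WT libraries, the shares were 60.1% of 3833 genes and 30.4% of the 23 lower by at least 4-fold. Without replicate 1 the share was 32.0% of 75 genes at least 4-fold lower. Of the higher genes, 54.3% of the 35 with all libraries and 68.8% of the 269 without replicate 1 had them.

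The KO clones, which share no library with the WT pair, also differed from each other. KO clone 5 against KO clone 1 gave 125 called genes (0.662%), 83 higher (0.440%) and 42 lower (0.223%). Of these 73 differed by at least 2-fold (0.387%), and 9 were at least 4-fold lower (0.0477%). DESeq2 called 184 genes between the KO clones and 485 between the WT clones. A total of 6 of the 125 were among the 133 genes of the WT pair, 4.51% of the one list and 4.8% of the other, and 1 of the 6 went in the same direction. With the WT list made without WT clone 1 replicate 1, 18 genes were shared, 2.25% of the WT list and 14.4% of the KO list, 8 of them in the same direction. CCND2 was at 12.5 and 13.7 CPM in KO clone 1 and at 34.3 and 35.4 CPM in KO clone 5 (log2 1.41, edgeR adjusted p = 0.00139). CYP1B1, at 3.43 and 3.06 against 1.09 and 0.436 CPM, was lower in KO clone 5 (log2 -2.05, edgeR adjusted p = 0.044), and SDC2 was as well (log2 -0.67, adjusted p = 0.0215). For repeats edgeR called 0 between the KO clones (189 higher and 3 lower at an unadjusted p below 0.05), and DESeq2 called 2. By sign alone 973 of 1078 repeats were higher in KO clone 5 and 105 lower, so a shift mostly in 1 direction was not particular to the WT pair. The repeat share was 8.97% and 9.05% in KO clone 1 and 11.2% and 10.7% in KO clone 5.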

How the data were processed

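Total RNA depleted of ribosomal RNA was made into directional libraries and sequenced as paired reads, per the labels' protocols. The deposited values are raw counts per gene and repeat subfamily. The submitters' processing notes name STAR 2.5.2a, DESeq2 1.22.2 and the build hg38. The sources used here do not give the strand setting, annotation release or use of molecular identifiers. The smallest row total was 37.

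Genes and repeats were fitted together in edgeR 4.0.16 (R 4.3.3), with TMM scaling, filterByExpr by clone at a minimum count of 10, 4 clone groups and the quasi-likelihood F test. The contrast was WT clone 7 minus WT clone 1, with Benjamini-Hochberg adjustment over all rows tested and a call at adjusted p below 0.05. The SE was the size of the log2 difference over the square root of the F statistic. The filter asked for about the minimum count, scaled for depth, in at least 2 libraries. The fit was also run on counts simulated with its own estimates of spread and no outlying library. That run cannot judge calls where WT clone 1 replicate 1 stands apart, and its outcome is not reported here. DESeq2 1.42.0, other scalings and filters, a replicate block and leaving out libraries were alternatives. Positions came from GENCODE release 44. Depth was 16103754 to 34407309 counts per library, which limits genes under about 1 CPM to few reads.

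The members, 38 gene lists and the naming rule were chosen with earlier results of these data known. Genes were named as the 15 largest calls each way at 1 CPM or more, the 5 most abundant each way, genes at 0 in 1 clone, up to 4 members of each list by p, 6 repeats, and genes most moved by leaving out WT clone 1 replicate 1. GATA2, TAL1, CD38, FLI1, PTPN6, LMO2, HSPA8, LTR7, LTR7C, ZNF66, ZNF100, ZNF257, ZNF486, ZNF492, ZNF676, ZNF729, ZNF730 and ZNF737 were named, and the chromosome-wide ZNF counts and the list of mitochondrial proteins added, after their values were seen. Of the lists 2 (mitochondrial genes by their MT- names, and GIMAP genes) had no tested member. Some genes that the rule names are not reported here.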

Additional observations from a re-analysis of the deposited data

How the results depend on the processing

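With all libraries edgeR called 133 genes and 29 repeats between the WT clones. DESeq2 called 485 and 355, a replicate block 529 and 482, the strict filter 184 genes and 53 repeats, and robust dispersion 170 and 55. The WT libraries alone gave 0 and 0 by edgeR (2434 genes and 689 repeats at an unadjusted p below 0.05) and, without WT clone 1 replicate 1, 977 and 299. Leaving out 1 library gave 0 to 800 genes and 0 to 249 repeats. The lowest counts came without either library of WT clone 7 and the highest without WT clone 1 replicate 1, while leaving out replicate 2 gave 171 and 103, and replicate 3 gave 58 and 12. A block together with leaving out WT clone 1 replicate 1, added after seeing the data, gave 126 and 33. Between the KO clones 125 genes became 18 to 41 when a library was left out. The labels do not say that a replicate number marks a shared batch, and the WT clones share 2 numbers, so no pairing was assumed. Deviations of same-numbered libraries from their clone mean correlated at 0.0907 to 0.494 in all 12 pairs, 2 of them under 0.1. In a clone of 2 libraries these deviations mirror each other. Values such as 0.494 therefore recur, and the 12 pairs are not independent. They are at most a hint of a shared effect, from the data and not from the design. Replicate 3 is a number of 1 library that the block absorbs. BCR, which was not called, had a log2 difference of -0.00 that turned to 0.01 or 0.02, or 0.00 with no filter, and ran from -0.03 to 0.01 when a WT library was left out. SNHG4, not called either, turned to -0.06 with the block and ran from -0.06 to 0.16 when one was left out. The cause was not tested. With 2 libraries of WT clone 7 and low depth, genes under about 1 CPM are the least certain.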
